A study of Rattus norvegicus with 12 samples.

Results

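Vegfa (ENSRNOG00000019598), Flt1 (ENSRNOG00000000940), Nos3 (ENSRNOG00000009348) and Hif1a (ENSRNOG00000008292) were followed in the left ventricle of neonatal rats. These 4 genes of hypoxia and angiogenesis were taken by identifier from 34733 rows of counts, and all of them passed the filter on low counts in each comparison. The samples were 12 libraries from Sprague-Dawley pups of both sexes, 3 in each of 4 groups. ABS-P3 and ABS-P7 had abdominal aortic banding surgery (ABS) at postnatal day 1 and were collected at postnatal day 3 (P3) or 7 (P7), and Sham-P3 and Sham-P7 had sham surgery and were collected at the same ages. ABS ties a suture around the abdominal aorta over a needle that is then withdrawn, and it is used as a model of left ventricular pressure overload. By the methods of the study, blood pressure could not be read at these ages, so the load on the ventricle at P3 and P7 is not known for the sequenced pups. The methods state that left ventricles were collected, while the labels name left ventricular myocardiocytes. No table used here paired the identifiers with symbols, so markers of cell types were not checked, and the symbols of the 4 genes are those given with their identifiers.

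Hif1a encodes the oxygen-regulated subunit of hypoxia-inducible factor 1 (HIF-1). Its protein is hydroxylated and degraded when oxygen is ample and accumulates when oxygen is low, so the mRNA level of Hif1a does not measure HIF-1 activity. Vegfa encodes vascular endothelial growth factor A, a secreted ligand and a known target of HIF-1 that drives the growth of capillaries. Flt1 encodes VEGF receptor 1, which binds this ligand with high affinity, and a soluble form of it acts as a decoy. Nos3 encodes endothelial nitric oxide synthase, which makes nitric oxide in the vessel wall. In the heart, cardiomyocytes are a main source of Vegfa, whereas Flt1 and Nos3 are mostly products of endothelial cells, and the capillary bed of the ventricle grows in the first weeks after birth. In whole tissue, fewer cells of a type and less RNA per cell cannot be told apart.

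Across the 12 libraries, Vegfa, Flt1 and Nos3 were higher at P7 than at P3, and ABS and sham libraries of the same age were not told apart by any of the 4 genes. Vegfa rose most, to 2.64 times its P3 level. The rise of Vegfa kept an adjusted p under 0.05 whichever library was left out, and those of Flt1 and Nos3 did not. With the number of genes detected in a library added to the model, none of the 4 genes passed, where 0.814% of all genes did. That number was itself higher in every library of P7 than in every library of P3, so it and age are hard to tell apart. The log2 fold change of Nos3 was not smaller in that fit, at 0.59 against 0.39 without the added term. Hif1a did not pass the test between the days.

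The libraries of P3 were unlike each other. Total counts were 14867713 to 17286278 per library at P3 and 14268210 to 16102725 at P7. In ABS-P3 replicates 1 and 2 and Sham-P3 replicate 2, 15266 to 15719 genes had at least 1 count, against 17259 to 18359 in the other 3 libraries of P3 and 18579 to 18982 in the libraries of P7. Counts were scaled to CPM, the share of each gene among the reads of a library, with TMM, a method that adjusts library totals so that most genes are level. The TMM factors were 0.802 to 0.897 in those 3 libraries and 0.987 to 1.09 in the others. The labels give no sequencing batch. Most comparisons that use P3 are therefore also given without these 3 libraries, some by log2 fold change only, a choice made after the data were seen.

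The promoters of the 4 genes are shown because HIF-1 acts through the short sequences ACGTG and GCGTG, and because Vegfa is a known target of it. Each is the 250 bases upstream of a RefSeq start site in the build GRCr8, 5′ to 3′ on the strand of the gene, and capitals mark ACGTG or GCGTG on either strand. Another start site of Vegfa in the same table, which had no match either, is not shown.
Vegfa, chr9:22452604-22452853, plus strand: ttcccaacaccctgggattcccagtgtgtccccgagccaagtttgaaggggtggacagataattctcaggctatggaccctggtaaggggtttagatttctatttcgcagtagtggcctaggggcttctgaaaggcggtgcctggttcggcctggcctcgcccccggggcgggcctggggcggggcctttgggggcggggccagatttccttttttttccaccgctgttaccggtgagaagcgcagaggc
Flt1, chr12:12333180-12333429, plus strand: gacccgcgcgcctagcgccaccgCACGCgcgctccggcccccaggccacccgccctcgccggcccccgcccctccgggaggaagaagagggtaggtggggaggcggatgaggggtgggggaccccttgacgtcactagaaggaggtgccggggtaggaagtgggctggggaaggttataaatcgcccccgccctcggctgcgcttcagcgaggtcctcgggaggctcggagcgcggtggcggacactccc
Hif1a, chr6:98359648-98359897, plus strand: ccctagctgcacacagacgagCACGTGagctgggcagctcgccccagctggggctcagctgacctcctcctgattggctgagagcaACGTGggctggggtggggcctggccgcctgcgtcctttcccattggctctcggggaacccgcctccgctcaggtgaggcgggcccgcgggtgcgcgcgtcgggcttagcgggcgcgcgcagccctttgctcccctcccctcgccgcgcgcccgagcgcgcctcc
Nos3, chr4:11706582-11706831, minus strand: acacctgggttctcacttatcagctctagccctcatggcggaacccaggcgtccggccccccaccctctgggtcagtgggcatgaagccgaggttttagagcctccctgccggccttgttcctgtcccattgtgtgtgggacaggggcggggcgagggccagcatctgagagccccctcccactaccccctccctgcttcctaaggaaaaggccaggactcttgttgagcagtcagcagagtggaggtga

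The window of Hif1a held 3 matches to ACGTG, of which 2 lie on opposite strands of 1 CACGTG, a palindrome that other factors also bind. The window of Flt1 held 1 match to GCGTG, on the opposite strand, and the windows of Vegfa and Nos3 held none of either. Of 33469 promoter windows of this length in the table, 16.6% held ACGTG, 25.9% held GCGTG and 5.59% held CACGTG. A match of these letters is not a shown binding site, and a window without them does not speak to sites farther from the start.

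Vegfa was at 102, 117 and 257 CPM in ABS-P3 replicates 1, 2 and 3 and at 229.5, 98.8 and 107 CPM in Sham-P3 replicates 1, 2 and 3. At P7, the level of this ligand was 435, 424 and 387 CPM in the ABS group and 351, 400.4 and 407 CPM in the sham group, by replicate. All 6 libraries of P7 were above all 6 libraries of P3, and the ABS and sham libraries overlapped at both ages. The means were 159 ± 85.3 CPM (SD, n = 3) in ABS-P3, 145 ± 73.3 CPM (SD, n = 3) in Sham-P3, 415 ± 24.8 CPM (SD, n = 3) in ABS-P7 and 386 ± 30.5 CPM (SD, n = 3) in Sham-P7. In this order of levels, ABS-P7 and Sham-P7 did not differ beyond their spread, nor did ABS-P3 and Sham-P3, while the days were apart. Groups that do not overlap were also found for 10.6% of 15236 genes between the days, 5.48% with P7 higher.

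Flt1 was at 51.9, 44.8 and 79.0 CPM in ABS-P3 replicates 1, 2 and 3 and at 97.4, 31.0 and 59.3 CPM in Sham-P3 replicates 1, 2 and 3. At P7, the receptor was at 105, 94.7 and 138 CPM in the ABS group and at 97.3, 101 and 106 CPM in the sham group, by replicate. Sham-P3 replicate 1, at 97.4 CPM, lay within the range of P7, and the other 5 libraries of P3 lay under it. ABS-P7 replicate 3 was the highest of all 12. The means were 58.6 ± 18.0 CPM (SD, n = 3) in ABS-P3, 62.6 ± 33.3 CPM (SD, n = 3) in Sham-P3, 113 ± 22.6 CPM (SD, n = 3) in ABS-P7 and 101 ± 4.10 CPM (SD, n = 3) in Sham-P7. The counts are summed over the gene, so full-length and soluble Flt1 transcripts were not separated.

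Nos3 was at 105, 100.1 and 91.0 CPM in ABS-P3 replicates 1, 2 and 3 and at 90.1, 124 and 122 CPM in Sham-P3 replicates 1, 2 and 3. At P7, the enzyme was at 141, 142 and 137 CPM in the ABS group and at 124, 144 and 142 CPM in the sham group, by replicate. Sham-P7 replicate 1 was level with Sham-P3 replicate 2, and the other libraries of P7 were above all libraries of P3. The means were 98.7 ± 7.16 CPM (SD, n = 3) in ABS-P3, 112 ± 19.1 CPM (SD, n = 3) in Sham-P3, 139.7 ± 2.78 CPM (SD, n = 3) in ABS-P7 and 137 ± 10.9 CPM (SD, n = 3) in Sham-P7. Of the 4 genes, it had the smallest spread over the 6 libraries of P3, with a coefficient of variation of 14.1%, against 39.8% to 47.1% for the others.

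Hif1a was at 61.5, 82.9 and 143 CPM in ABS-P3 replicates 1, 2 and 3 and at 142, 54.6 and 84.9 CPM in Sham-P3 replicates 1, 2 and 3. At P7, the HIF-1 subunit was at 116, 106 and 113 CPM in the ABS group and at 118, 116 and 119 CPM in the sham group, by replicate. The libraries of P3 lay on both sides of those of P7, with ABS-P3 replicate 3 and Sham-P3 replicate 1 above and the other 4 below. The means were 95.9 ± 42.4 CPM (SD, n = 3) in ABS-P3, 93.7 ± 44.2 CPM (SD, n = 3) in Sham-P3, 112 ± 5.26 CPM (SD, n = 3) in ABS-P7 and 118 ± 1.59 CPM (SD, n = 3) in Sham-P7.

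**Figure D1:**
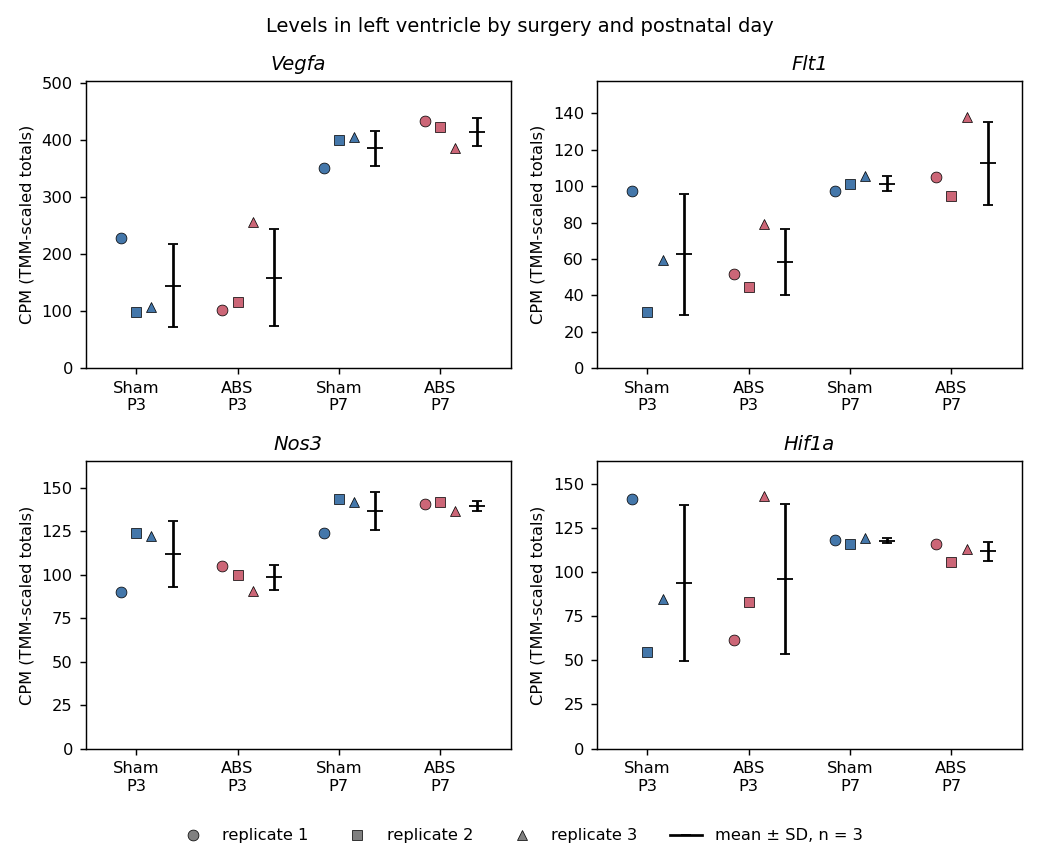
Levels of Vegfa, Flt1, Nos3 and Hif1a in each library (CPM on TMM-scaled totals, vertical axis from 0) by group (horizontal axis), with the mean and SD of the 3 libraries beside them. The 6 libraries of P7 sit at 351 to 435 CPM for Vegfa, above the 98.8 to 257 CPM of P3, whereas ABS (red) and sham (blue) overlap in every panel at each age.

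The spread at P3 was far larger than counting error. The smallest of these counts was 415, for Flt1 in Sham-P3 replicate 2, which has a counting error of 4.91%, and each of the other counts had less. At P3, the coefficient of variation within a group was 30.8% to 53.7% for Vegfa, Flt1 and Hif1a and 7.26% to 17.1% for Nos3. The median over all genes with at least 5 CPM was 30.8% in ABS-P3 and 30.0% in Sham-P3. At P7, it was 1.35% to 20.1% for the 4 genes, and the medians over all genes were 8.85% in the ABS group and 7.59% in the sham group.

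Whether the genes changed with age was tested with edgeR's quasi-likelihood test over all 12 libraries, with surgery as a term and p-values adjusted over 15236 genes by the Benjamini-Hochberg method. Vegfa was 2.64 times as high at P7 as at P3 (log2 fold change 1.40, standard error 0.26, adjusted p = 0.00922, 95% interval 1.79-fold to 3.89-fold). Flt1 was 1.76 times as high (log2 fold change 0.82, standard error 0.24, adjusted p = 0.0388, 95% interval 1.22-fold to 2.54-fold). Nos3 rose to 1.31 times its P3 level (log2 fold change 0.39, standard error 0.11, adjusted p = 0.0301, 95% interval 1.12-fold to 1.54-fold). For Hif1a, the log2 fold change was 0.28 with a standard error of 0.23, and the adjusted p from edgeR was 0.380. Its 95% interval ran from 0.854-fold to 1.72-fold. Thus 3 of the 4 genes rose, where 5.59% of all genes tested rose and 11.5% fell, 17.1% in all. Without adjustment, 37.6% of all genes had a p under 0.05, as did 3 of the 4. The median log2 fold change was 0.61 for the 4 genes and 0.03 for all genes. With library totals in place of TMM, that median of all genes was 0.23, and relative to it the log2 fold changes were 1.33 for Vegfa, 0.75 for Flt1, 0.38 for Nos3 and 0.21 for Hif1a.

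An exact permutation test of the mean log2 CPM of 6 libraries against 6, two-sided, gave p = 0.00216 for Vegfa, the smallest it can give, and p = 0.00433 for Nos3. The same exact test gave p = 0.00649 for Flt1 and p = 0.152 for Hif1a. These p-values are not adjusted. Pups within a group are separate samples, but whether they came from separate litters is not stated.

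The number of detected genes moved with age as well, being higher in every library of P7 than in every library of P3. Without the 3 libraries of fewest detected genes, ABS-P3 replicate 3 was the lone ABS library left at P3. The spread of ABS-P3 could not be measured, so no p-value of that fit is given. Vegfa was still higher at P7 in it, with a log2 fold change of 0.99. Flt1 and Nos3 then had log2 fold changes of 0.41 and 0.45, and that of Hif1a was -0.12. When detected genes entered the model of both surgeries as a covariate, none of the 4 genes (0 of 4) passed the adjusted threshold with edgeR. Of all genes, 0.814% did, against 17.1% without the covariate. The log2 fold changes were then 0.52 for Vegfa, -0.04 for Flt1, 0.59 for Nos3 and -0.57 for Hif1a. Their adjusted p-values from edgeR were 0.222, 0.929, 0.0943 and 0.128, in that order. Nos3 had an unadjusted p of 0.00218 from edgeR in this fit, and 0.00317 without the covariate. With 1 library left out in turn, Vegfa passed in all 12 fits, whereas Flt1 missed the adjusted threshold in 10 and Nos3 in 7. The log2 fold changes stayed between 1.30 and 1.61 for Vegfa, 0.69 and 1.01 for Flt1 and 0.32 and 0.44 for Nos3. Of all genes, 6.85% to 39.7% were called in these fits.

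Within each surgery group, only 3 libraries stood against 3, and none of the 4 genes reached an adjusted p under 0.05 with edgeR. Of all genes tested, 0.00684% did so after sham surgery and 0.0138% after ABS. Groups that do not overlap were found for 29.6% of 15236 genes after sham surgery, and for 27.7% after ABS. Vegfa did not overlap between the days in either, and Flt1 and Nos3 did not after ABS. In the sham group, Vegfa had a log2 fold change of 1.41 (standard error 0.35, unadjusted p = 0.00541 and adjusted p = 0.286 from edgeR). After ABS, its log2 fold change was 1.37 (standard error 0.36, unadjusted p = 0.00701 and adjusted p = 0.233 from edgeR). Flt1 had log2 fold changes of 0.69 in the sham group and 0.92 after ABS, and those of Nos3 were 0.28 and 0.47. Hif1a had 0.33 and 0.20. In unadjusted terms, 1 of the 4 genes was under 0.05 in the sham group, against 16.1% of all genes, and 3 of 4 after ABS, against 17.7%. With DESeq2, the tool of the study, Vegfa passed the adjusted threshold in both groups (adjusted p = 0.0192 in the sham group and 0.0260 after ABS), and the other 3 genes did in neither. DESeq2 called 1.92% of the genes it tested in the sham group and 2.31% after ABS, and 18.2% over both surgeries, where it called the same 3 genes as edgeR. With limma (voom with sample quality weights), 3 of the 4 genes passed in the sham group, all but Nos3, against 54.3% of all genes, and 4 of 4 after ABS, against 53.2%. Over both surgeries limma called all 4, against 55.3%. Without ABS-P3 replicate 3, all 4 genes passed in the ABS group, against 50.1% of all genes, and without Sham-P3 replicate 1, Vegfa, Flt1 and Hif1a passed in the sham group, against 32.2% of all genes. These are the 2 libraries of P3 with the highest Vegfa, Flt1 and Hif1a. Without the 3 libraries of fewest detected genes, ABS-P3 replicate 3 was the lone ABS library of P3. The spread of ABS-P3 could then not be measured, and no p-value is given. The log2 fold changes after ABS were 0.68 for Vegfa, 0.50 for Flt1, 0.61 for Nos3 and -0.37 for Hif1a. After sham surgery they were 1.20 for Vegfa, 0.37 for Flt1, 0.36 for Nos3 and 0.056 for Hif1a, with adjusted p-values of 0.239 to 0.919 from edgeR, and 0% of all genes were called.

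**Figure D2:**
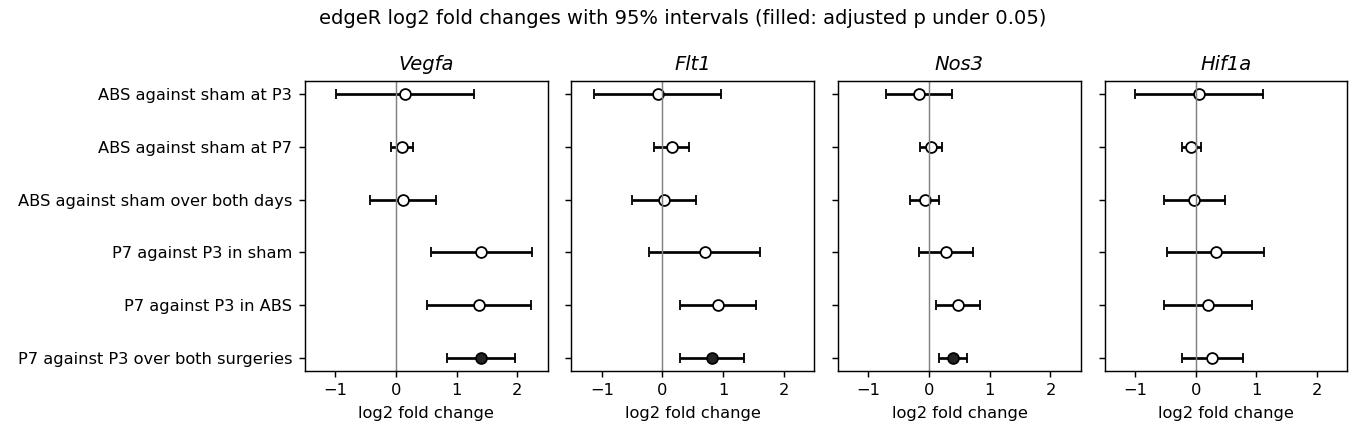
Log2 fold changes (horizontal axis) of the 4 genes in 6 comparisons (rows), as fitted by edgeR, with 95% intervals. Filled points have an adjusted p under 0.05, which holds for Vegfa, Flt1 and Nos3 between the days over both surgeries, and the intervals of ABS against sham are far narrower at P7 than at P3.

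The study asked how pressure overload changes the ventricle, so ABS was compared with sham at each age. At P7, Vegfa was 1.08 times as high after ABS as after sham surgery, with a 95% interval of 0.945-fold to 1.22-fold. The fold was 1.11 for Flt1 (0.906 to 1.36), 1.02 for Nos3 (0.906 to 1.15) and 0.949 for Hif1a (0.851 to 1.06). A rise above 1.36-fold lay outside the intervals of all 4 genes at P7. At P3, the intervals were wide, from 0.503-fold to 2.44-fold for Vegfa around 1.11, 0.459-fold to 1.96-fold for Flt1 around 0.948, 0.614-fold to 1.30-fold for Nos3 around 0.892 and 0.499-fold to 2.15-fold for Hif1a around 1.04. A 2-fold change of Vegfa at P3 lay inside its interval.

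None of the 4 genes (0 of 4) passed the adjusted threshold between ABS and sham at P3, at P7 or over both days with edgeR, DESeq2 or limma, and 0 of 4 had an unadjusted p under 0.05 in the main fit with edgeR. Of all genes tested with edgeR, 0% passed the adjusted threshold at P3, at P7 and over both days, and 0.33%, 3.4% and 1.05% the unadjusted one. DESeq2 called 0.0199% of the genes it tested at P3, 0.0453% at P7 and 0% over both days, and limma called 0% in each. With detected genes as a covariate at P3, edgeR gave unadjusted p-values of 0.0368 for Vegfa and 0.0133 for Hif1a (log2 fold changes 0.51 and 0.48). Those of Flt1 and Nos3 were over 0.05, and 1603 of 14222 genes were under it. The adjusted p-values of the 4 genes in that edgeR fit were 0.314 to 0.583. For each of the 4 genes, the ABS and sham libraries overlapped at both ages, as they did for all but 3.73% of 15236 genes at P3 and 8.84% at P7. For Hif1a at P7, the overlap was only of ABS-P7 replicate 1 (116.15 CPM) with Sham-P7 replicate 2 (116.11 CPM). That gap is smaller than their counting error, and the other ABS libraries of P7 were below all sham libraries of P7. The exact permutation test of 3 libraries against 3, which cannot go below p = 0.1, gave p = 0.4 to 1 at P3 and p = 0.2 to 1 at P7. With the labels permuted within each day, the exact test over 12 libraries gave p = 0.42 to 0.88. At P3, the direction of Vegfa, Flt1 and Hif1a turned with the library left out. Without ABS-P3 replicate 3, for example, the log2 fold change of Vegfa was -0.39, and without Sham-P3 replicate 1 it was 0.65. Without the 3 libraries of fewest detected genes, which leaves 1 ABS library, the log2 fold changes at P3 were 0.61 for Vegfa, 0.013 for Flt1, -0.22 for Nos3 and 0.34 for Hif1a, each with an adjusted p of 1.00 from edgeR. That lone ABS library was assumed to vary like the 2 sham libraries left.

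The change from P3 to P7 was not shown to differ between ABS and sham. When the effect of ABS was allowed to differ by day in a fit of the 12 libraries, the log2 interaction terms were -0.03 for Vegfa (standard error 0.53), 0.25 for Flt1 (0.50), 0.22 for Nos3 (0.22) and -0.11 for Hif1a (0.49). The smallest unadjusted p was 0.343, for Nos3, and the adjusted p was 1.00 for all 4 from edgeR. None of the 4 genes (0 of 4) was called by edgeR, DESeq2 or limma, which called 0%, 0.0221% and 0.0263% of the genes they tested, and 1.16% of all genes had an unadjusted p under 0.05 with edgeR. With detected genes as a covariate, the term of Hif1a was -0.58 (unadjusted p = 0.00350 and adjusted p = 0.187 from edgeR). The unadjusted p-values of Vegfa, Flt1 and Nos3 were then over 0.05, and those of 2108 of 15236 genes were under it. Leaving out the 3 libraries of fewest detected genes left a lone ABS library at P3. The terms were then -0.50 for Vegfa, 0.14 for Flt1, 0.26 for Nos3 and -0.41 for Hif1a.

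Ratios of 2 genes within a library do not depend on its total or on TMM, and they were used to ask whether the genes changed by different amounts. The exact p-values of the ratios, here and below, are not adjusted. The Vegfa to Hif1a ratio of counts was 1.66, 1.41 and 1.79 in ABS-P3 and 1.62, 1.81 and 1.26 in Sham-P3, by replicate. At P7, it was 3.74, 4.00 and 3.42 in the ABS group and 2.97, 3.45 and 3.41 in the sham group. All 6 ratios of P7 were above all 6 of P3, and the libraries of few detected genes lay among the others. Vegfa alone also separated the days, and how many other pairs of genes do so was not counted. The difference between the days was 1.14 on the log2 scale (exact permutation test of 6 against 6, two-sided, p = 0.00216, the smallest it can give). It ranged from 1.07 to 1.19 with 1 library left out and was 1.18 without the 3 libraries of fewest detected genes (exact p = 0.0119). Vegfa therefore rose relative to Hif1a in these libraries whichever scaling was used.

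The Vegfa to Flt1 ratio, of ligand to receptor, was 1.80 to 3.25 over the 6 libraries of P3 and 2.81 to 4.47 over those of P7. The ranges overlapped through ABS-P7 replicate 3, and the difference between the days was 0.61 on the log2 scale (exact permutation test, two-sided, p = 0.00866). Leaving out the 3 libraries of fewest detected genes, it was 0.65 (exact p = 0.0238). For Flt1 to Nos3, both mostly of endothelial cells, the ratio was 0.25 to 1.08 at P3 and 0.668 to 1.01 at P7, and the difference of 0.51 on the log2 scale did not pass (exact permutation test, two-sided, p = 0.149). Without the 3 libraries of fewest detected genes, it was -0.00076. Between ABS and sham, none of the 3 ratios passed at either age, with exact p-values of 0.7 to 0.9 at P3 and 0.2 to 1 at P7. The ratio of Vegfa to Hif1a came nearest at P7, at 3.72 ± 0.292 (SD, n = 3) after ABS and 3.28 ± 0.269 (SD, n = 3) after sham surgery, a log2 difference of 0.18 (exact p = 0.2).

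**Figure D3:**
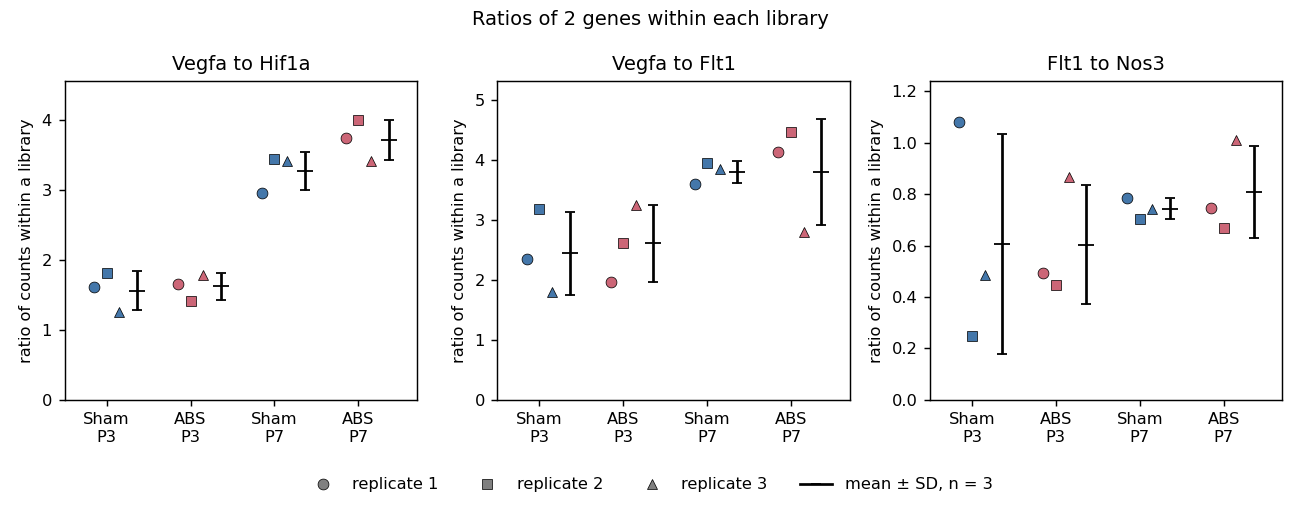
Ratio of the counts of 2 genes within each library (vertical axis from 0) by group (horizontal axis), with the mean and SD of 3 libraries. The Vegfa to Hif1a ratio is 1.26 to 1.81 in the 6 libraries of P3 and 2.97 to 4.00 in those of P7, with no overlap, while Flt1 to Nos3 overlaps between the days.

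Among the libraries of P3, Vegfa, Flt1 and Hif1a shared their 2 highest libraries and their lowest, which does not show that they are regulated together. ABS-P3 replicate 3 and Sham-P3 replicate 1 were the 2 highest in each of these 3 genes, and Sham-P3 replicate 2 was the lowest in each. In Nos3, the same 2 libraries were the 2 lowest and Sham-P3 replicate 2 the highest. That inverse order of Nos3 was found on the TMM scale and not on library totals. With RLE size factors, a further way of scaling, this order was not looked at. On library totals, Nos3 was at 88.9 to 99.5 CPM in 5 libraries of P3 and at 121 CPM in Sham-P3 replicate 3.

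The 2 libraries highest in Vegfa were also those with the most detected genes at P3, 17530 and 18359. Flt1 was at 31.0 to 51.9 CPM in the 3 libraries of fewest detected genes and at 59.3 to 97.4 CPM in the other 3, and Hif1a at 54.6 to 82.9 and 84.9 to 143 CPM. Vegfa was at 98.8 to 117 and 107 to 257 CPM, with an overlap, and Nos3 at 100.1 to 124 and 90.1 to 122 CPM. Of all 15236 genes, 22.7% were higher and 18.2% lower in all 3 libraries of more detected genes than in all 3 of fewer, so this split is common among genes and is not particular to Flt1 and Hif1a. Each surgery group had libraries on both sides of it, with 2 of 3 ABS libraries and 1 of 3 sham libraries on the side of fewer detected genes. Because the libraries of P3 fell into separate sets, correlations over them alone are not given. They were computed, and the adjusted p-values given below for P7 count them among the tests.

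**Figure D4:**
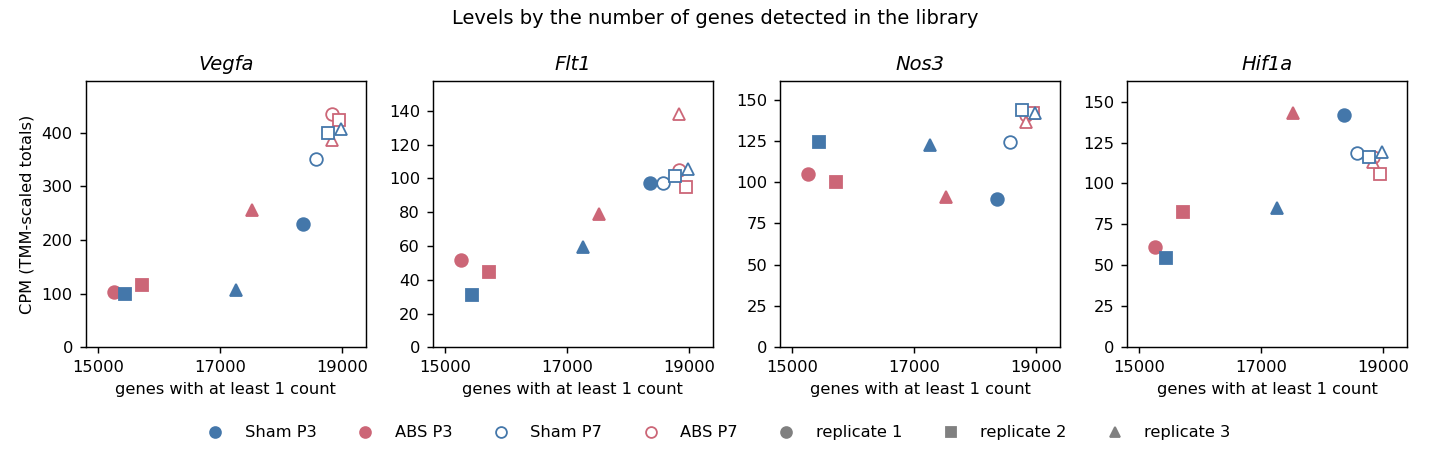
Level of each gene (CPM on TMM-scaled totals, vertical axis from 0) against the genes detected in that library, those with at least 1 count (horizontal axis), with P3 filled and P7 open, ABS in red and sham in blue. At P3, Hif1a and Flt1 are lower in the 3 libraries with 15266 to 15719 detected genes than in the 3 with 17259 to 18359, and Nos3 is not.

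At P7, no pair of the 4 genes passed a test of shared variation. Of 12 relations computed, 6 at each age, none had an adjusted p under 0.05 at P7. Vegfa and Nos3 had the largest Pearson r over the 6 libraries, 0.86 (exact permutation p = 0.0486, adjusted p = 0.146), with a Spearman rho of 0.43 (exact permutation p = 0.419, adjusted p = 0.719). Without the 2 libraries farthest from the median of Vegfa, r was 0.59. The other 5 pairs had Pearson r from -0.41 to 0.08 (exact permutation p = 0.393 to 0.951) and Spearman rho from -0.14 to 0.26 (exact permutation p = 0.658 to 1). Without the 2 libraries farthest from the median, 4 remain, and r moved to -0.88 for Vegfa and Flt1 (from -0.096) and to 0.81 for Flt1 and Nos3 (from 0.026), so r at this number of libraries turns on a few of them.

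For each of the 4 genes, the gene most like it was sought among 10831 others with at least 5 CPM on average, by Pearson r of log2 CPM over the 12 libraries after the mean of each day was subtracted. The libraries of P3, which fall into separate sets and spread more, weigh most in this measure, so it is a description only and has no test. For Vegfa it was ENSRNOG00000001912 (r = 0.994), for Flt1 ENSRNOG00000010997 (r = 0.980), for Nos3 ENSRNOG00000009594 (r = 0.929) and for Hif1a ENSRNOG00000014945 (r = 0.996). An r above 0.9 was found for 643 genes with Vegfa, 343 with Flt1, 8 with Nos3 and 1275 with Hif1a. For Vegfa, Flt1 and Hif1a, the gene named is therefore 1 of many. In likeness to Vegfa, Hif1a ranked 415 and Flt1 2312 among the 10831 genes.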

How the data were processed

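Raw read counts were deposited, 1 file for each library. Each file has 34733 rows, of which 1850 are outside the Ensembl genes. By the methods of the study and the submitters' processing notes, libraries were made from poly-A RNA, the reads were cleaned of adapter, low-quality and poly-N sequences, HISAT2 2.0.5 was used, and reads were counted with featureCounts. The notes name only mouse builds, while the rows carry rat Ensembl identifiers, and the rat build, annotation and strand setting are not given in the sources used here. Reads of overlapping or antisense genes may therefore be counted with a gene. Of the 32883 Ensembl identifiers, 0 matched the RefSeq table of GRCr8, so the lists of other pathway genes and of cell type markers were not tested, and the symbols of the 4 genes were taken from the description that gave their identifiers. Gene lengths were not used, so levels are not compared between genes.

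Groups came from the sample titles. All genes were tested with edgeR 4.0.16 (R 4.3.3; TMM, filterByExpr, robust quasi-likelihood test), with the Benjamini-Hochberg adjustment applied over the whole table. Intervals of 95% are from the same fit. CPM used totals scaled by TMM over all 12 libraries. The alternatives were DESeq2 1.42.0, limma 3.58.1 (voom with sample quality weights), RLE size factors, other filters, the replicate number as a block, detected genes as a covariate, all 12 libraries fitted, and each library left out. Library totals, and the omission of 3 libraries of P3, were added after seeing the data. The scripts were tested on simulated data with less spread than the libraries of P3 and larger changes than those of the 4 genes. That test does not show what could be found at the spread of P3. The 4 genes and the lists were chosen with earlier results of these data known. Named genes were the 4 in every comparison and, for each, the 1 gene most like it. Scatter between libraries of a group was 2.54 to 12.2 times the sampling noise, so none repeated another.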

Additional observations from a re-analysis of the deposited data

How the results depend on the processing

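Of the edgeR values for the 4 genes, most kept their direction and their side of the threshold, and the exceptions follow, as log2 values unless they are counts of genes. The cause was not tested. With detected genes as a covariate, Flt1 turned to 0.43 for ABS against sham at P3, -0.044 between the days over both surgeries, -0.13 between the days in sham and -0.30 in the interaction. Hif1a turned to -0.57, -0.36 and -1.04 between the days over both surgeries, in sham and in ABS, and to 0.15 for ABS against sham over both days. Vegfa turned to -0.090 between the days in ABS, and Nos3 to -0.013 for ABS against sham at P7. Of the 4 genes, those called between the days were then 0 over both surgeries, where 0.814% of all genes were called, and 1 in ABS, where 7.22% were (Hif1a, lower at P7, adjusted p = 0.0394 from edgeR). Without the 3 libraries of fewest detected genes, Flt1 turned to 0.013 for ABS against sham at P3, and Hif1a to -0.12 and -0.37 between the days over both surgeries and in ABS and to 0.056 for ABS against sham over both days. Calls between the days in ABS and over both surgeries are not given, because a lone ABS library of P3 was left. In mean log2 CPM, Hif1a was then at -0.063 between the days and at 0.15 for ABS minus sham within day, and the Flt1 to Nos3 log2 ratio at -0.00076 between the days. With limma, Hif1a turned to -0.10 for ABS against sham at P3, the interactions of Vegfa and Hif1a to 0.026 and 0.030 and Nos3 to 0.0046 for ABS against sham over both days. Between the days limma called 3 of the 4 genes in sham and 4 in ABS, against 54.3% and 53.2% of all genes, and DESeq2 called 1 in each, against 1.92% and 2.31%. On library totals, the correlation of Flt1 and Nos3 at P7 turned to -0.011, and without the 2 libraries farthest from the median those of Flt1 and Hif1a and of Nos3 and Hif1a turned to -0.054 and 0.12.

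With 1 library left out in turn, the log2 fold changes between ABS and sham at P3 ranged from -0.39 to 0.65 for Vegfa, from -0.40 to 0.40 for Flt1, from -0.37 to 0.48 for Hif1a. At P7 they ranged from -0.028 to 0.26 for Flt1 and from -0.033 to 0.069 for Nos3, and over both days from -0.11 to 0.34 for Vegfa, from -0.11 to 0.25 for Flt1, from -0.21 to 0.16 for Hif1a. The interaction ranged from -0.55 to 0.48 for Vegfa, from -0.25 to 0.57 for Flt1, from -0.56 to 0.28 for Hif1a. Hif1a ranged from -0.034 to 0.60 between the days in ABS. Of the 4 genes, 1 to 3 were called between the days over both surgeries, 0 to 3 in sham and 0 to 4 in ABS, while 1069 to 6232, 0 to 4820 and 0 to 7468 of all genes were. In mean log2 CPM, ABS minus sham ranged at P3 from -0.29 to 0.50 for Vegfa, from -0.42 to 0.41 for Flt1, from -0.28 to 0.40 for Hif1a, at P7 from -0.024 to 0.25 for Flt1 and from -0.033 to 0.074 for Nos3, and within day from -0.094 to 0.30 for Vegfa, from -0.14 to 0.27 for Flt1, from -0.18 to 0.16 for Hif1a. Hif1a between the days ranged from 0.24 to 0.51. The log2 ratios of ABS minus sham ranged from -0.098 to 0.31 at P3 and -0.16 to 0.18 at P7 for Vegfa to Flt1, from -0.33 to 0.73 and -0.075 to 0.22 for Flt1 to Nos3, and from -0.085 to 0.18 at P3 for Vegfa to Hif1a. Flt1 to Nos3 between the days ranged from 0.28 to 0.71.

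Same-numbered ABS and sham libraries deviated with correlations of -0.45, 0.36 and -0.0076 at P3 and 0.011, 0.054 and 0.0045 at P7, and no pairing was taken from the numbers. With the replicate number as a block, Flt1 turned to 0.036 for ABS against sham at P3, and 3 of the 4 genes were called between the days over both surgeries, with Vegfa at 1.43. The counts of the 4 genes were 415 or more in every library. Of the comparisons of ABS with sham, the intervals were widest at P3.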
